A study of Mus musculus with 12 samples.

Results

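The 2′-5′ oligoadenylate synthetase (OAS) family was followed in ileal enteroids through 6 genes, Oas1a, Oas1g, Oas2, Oas3, Oasl1 and Oasl2, of the 18068 genes in the deposited count table. They were chosen by name, with their levels in the 4 groups already known from the same libraries, so those levels and their differences, in every contrast of the 4 groups, are given as a description without a test. Enteroids are epithelial organoids, and these were derived from the ileum of wild-type C57Bl/6 mice. There were 12 libraries in 4 groups of 3. A control group was left untreated, another received 1 mM butyrate for 48 h, another 20 ng/mL IL-13 for 72 h, and the last received both agents at the same doses and times. Butyrate is a short-chain fatty acid made by gut bacteria and an inhibitor of histone deacetylases, and IL-13 is a type 2 cytokine that signals through STAT6. Poly(A) RNA was sequenced with a directional protocol. The labels do not say whether the 3 libraries of a group came from separate cultures or animals, so a p-value covers only how these libraries spread, which may be technical.

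OAS enzymes bind double-stranded RNA, a product of viral replication, and join ATP into short chains called 2-5A. These chains are a second messenger of antiviral defence. The genes are textbook targets of interferon: type I and type III interferons act through factors such as STAT2 and IRF9 at the interferon-stimulated response element (ISRE) of target promoters, whereas interferon gamma acts at the gamma-activated site (GAS). In the intestinal epithelium, type III interferon is a main antiviral signal. The OAS-like genes differ from the synthetases. Oasl1 has no synthetase activity and is known to hold back translation of Irf7 mRNA, while mouse Oasl2 has kept the enzyme activity.

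All 6 genes lie on mouse chromosome 5 in 2 blocks (build mm10, positions as in the deposited table). The synthetase block runs from 120730333 to 120907521, a span of 177 kb, and holds 8 genes of the family that have a row in the table. Oas2 (ENSMUSG00000032690, 120730333 to 120749853), Oas3 (ENSMUSG00000032661, 120753098 to 120777661), Oas1g (ENSMUSG00000066861, 120876142 to 120887613) and Oas1a (ENSMUSG00000052776, 120896256 to 120907521) are all on the minus strand. The OAS-like pair lies in a separate block of 41.0 kb on the plus strand, with Oasl2 (ENSMUSG00000029561) from 114896936 to 114912234 and Oasl1 (ENSMUSG00000041827) from 114923240 to 114937915. Oas1a and Oas1g share long stretches: 57.6% of the 50-base words in Oas1a transcripts also occur in Oas1g transcripts, and 45.2% of those in Oas1g occur in Oas1a. Reads from the shared stretches could have been split or dropped in counting, so the levels of these 2 genes are uncertain. Oas2, Oas3, Oasl1 and Oasl2 shared 0 such words with any other gene of the family.

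Promoter sequence is shown because it differs between the OAS genes whose levels are compared here. RefSeq promoter windows of build GRCm38.p6, from 250 bases before to 50 bases after the start, were held for 5 of the 6 genes; there was no entry for Oas2. The stretch from 100 bases before to 30 bases after each start is printed 5′ to 3′ on the gene's own strand. Capitals mark every match to the ISRE core GAAANNGAAA, searched on both strands.
Oas1a, chr5:120907496-120907625, minus strand: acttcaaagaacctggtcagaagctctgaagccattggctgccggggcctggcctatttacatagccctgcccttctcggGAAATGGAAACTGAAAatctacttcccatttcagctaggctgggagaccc
Oas1g, chr5:120887584-120887713, minus strand: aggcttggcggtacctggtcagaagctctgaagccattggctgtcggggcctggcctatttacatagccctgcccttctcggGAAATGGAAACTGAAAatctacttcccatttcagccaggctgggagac
Oas3, chr5:120777630-120777759, minus strand: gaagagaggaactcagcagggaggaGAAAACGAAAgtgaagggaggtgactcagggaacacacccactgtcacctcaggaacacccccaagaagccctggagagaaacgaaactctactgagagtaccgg
Oasl1, chr5:114923140-114923269, plus strand: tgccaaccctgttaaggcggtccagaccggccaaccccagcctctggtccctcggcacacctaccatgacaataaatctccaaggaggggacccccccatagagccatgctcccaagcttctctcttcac
Oasl2, chr5:114896834-114896963, plus strand: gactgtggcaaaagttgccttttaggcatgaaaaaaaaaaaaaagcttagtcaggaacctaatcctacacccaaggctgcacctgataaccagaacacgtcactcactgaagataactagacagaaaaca

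The ISRE core was found in 3 of the 5 OAS windows, against 3.44% of 32851 RefSeq promoter windows of the same length. Oas1a and Oas1g each held 2 overlapping copies, the first beginning 20 and 18 bases before the start, inside a run of 73 bases that both promoters share letter for letter. Oas3 held 1 copy, 75 bases before its start. The longer form GAAANNGAAACT, which contains the core, was found in Oas1a and Oas1g and in 0.271% of all windows. The GAS core TTCNNNGAA was found in 1 of the 5, Oas1a, and in 8.30% of all windows. The Oasl1 and Oasl2 windows held none of the 3 letter patterns, which says only that these letters are not in these windows. Outside the 6, the window of Oas1c, another family member, held 2 copies of the core and 1 of the longer form. The part of these motifs in the OAS levels was not tested.

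Library totals ran from 13867982 to 24294456 counts, and the 6 libraries given IL-13 were the shallower ones, at 13867982 to 15618074. Levels are given as CPM, the usual depth-scaled count, computed on TMM-scaled library sizes. The 6 OAS genes together drew 1547 to 7031 counts per library. All 8 epithelial markers on the list were detected, and their summed level was 9250 to 13110 CPM over the 12 libraries. Immune markers had a row for 6 of 12 genes, and their sums spanned 27.0 to 30.9 CPM in the untreated group, 27.3 to 29.2 under butyrate, 28.5 to 34.7 under IL-13 and 31.6 to 34.6 under both. The leukocyte marker Ptprc had 1 to 10 counts per library, and Cd3e, a T cell marker, was at 0 in the butyrate and the IL-13 libraries. In bulk RNA, fewer cells of a type and less RNA per cell cannot be told apart. Butyrate replicate 2 and the replicate 3 of the combined treatment stood apart in Lars2. On plain library totals, without TMM scaling, they were at 5305 and 6113 CPM against 458 to 1509 in the other libraries.

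Oas1a, a small synthetase, was at 2.48, 4.86 and 3.66 CPM in the untreated libraries, at 11.3, 7.49 and 11.8 with butyrate, at 5.26, 3.85 and 5.58 with IL-13, and at 12.3, 15.1 and 14.6 with both. Every butyrate library lay above every untreated library, the IL-13 libraries overlapped the untreated ones, and the libraries given both were the highest. The means were 3.67 ± 1.19, 10.2 ± 2.36, 4.90 ± 0.92 and 14 ± 1.49 CPM (SD, n = 3 each). Oas1g, which shares sequence with Oas1a, was at 0.673, 1.01 and 0.776 CPM untreated and at 3.33, 2.65 and 4.02 with butyrate. With IL-13 Oas1g was at 0.865, 1.24 and 0.953 CPM, and with both at 4.27, 5.18 and 4.17. Its groups stood in the same order as those of Oas1a, again with only untreated and IL-13 overlapping. For both genes the gap between butyrate and the combined treatment closed to an overlap when plain library totals replaced TMM scaling.

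Oas2, the middle-sized synthetase, was the lowest of the 6 per kilobase. It was at 0.673, 1.74 and 0.499 CPM untreated, at 3.17, 3.8 and 4.25 with butyrate, at 1.08, 0.893 and 1.43 with IL-13, and at 2.06, 4.38 and 5.19 with both. The 6 libraries without butyrate all lay below the 6 with it, and IL-13 separated neither set further. Oas3, the largest synthetase, was at 5.30, 13.9 and 8.70 CPM untreated and at 46.3, 41.8 and 53.8 with butyrate. With IL-13 it was at 10.2, 8.65 and 11.1 CPM, and with both at 29.0, 44.8 and 55.5. Its lowest butyrate-treated library, replicate 1 of the combined treatment, was still above its highest library without butyrate, untreated replicate 2.

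Oasl2, the OAS-like gene that kept the enzyme activity, was at 17.7, 36.1 and 24.2 CPM untreated, at 93.7, 81.8 and 112 with butyrate, at 31.6, 31.9 and 30.9 with IL-13, and at 78, 102 and 116 with both. It divided the libraries as Oas2 and Oas3 did, by butyrate alone. Oasl1, the OAS-like gene without synthetase activity, was at 48.0, 58.6 and 47.9 CPM untreated, at 111, 84.9 and 124 with butyrate, at 146, 159 and 168 with IL-13, and at 219, 260 and 319 with both. Its 4 groups did not overlap at all: untreated was lowest at 51.5 ± 6.16 CPM, followed by butyrate at 107 ± 20.0, IL-13 at 158 ± 11 and both at 266 ± 50.4 (SD, n = 3 each). Oasl1 was the only one of the 6 whose IL-13 libraries lay above its butyrate libraries.

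**Figure D1:**
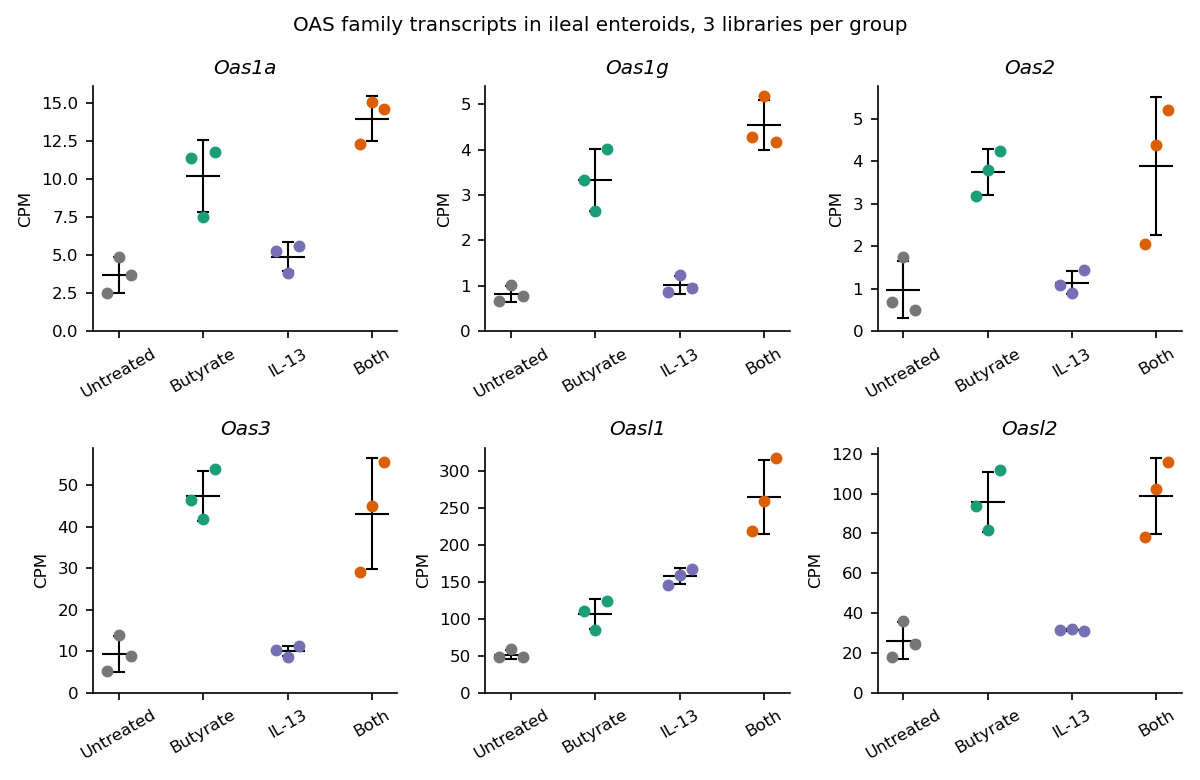
CPM of each OAS gene in the 12 libraries, with a point per library and the group mean with its SD, on a linear axis that starts at 0. Oas2, Oas3 and Oasl2 divide by butyrate, Oas1a and Oas1g are highest with both agents, and Oasl1 climbs from 51.5 CPM untreated to 266 CPM with both.

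Per kilobase of exon, which allows genes to be compared, untreated enteroids held 19.8 CPM per kb of Oasl1, 4.08 of Oasl2, 1.95 of Oas1a, 1.32 of Oas3, 0.351 of Oas1g and 0.218 of Oas2. With butyrate the order changed in its middle, to 40.9 for Oasl1, 15 for Oasl2, 6.69 for Oas3, 5.41 for Oas1a, 1.42 for Oas1g and 0.840 for Oas2. Oas3 and Oas1a were neighbours in both orders, and their libraries overlapped in both groups. With butyrate they spanned 5.91 to 7.61 CPM per kb for Oas3 and 3.97 to 6.25 for Oas1a. Because Oas1a and Oas1g share long stretches, the places of these 2 genes in either order are uncertain. In the IL-13 group Oasl1 stood at 60.5 and the second gene, Oasl2, at 4.93 CPM per kb.

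The summed level of the 6 genes was 92.3 ± 21.5 CPM untreated, 267 ± 43.8 with butyrate, 206 ± 11.3 with IL-13 and 430 ± 85.1 with both (SD, n = 3 each). What the sum was made of differed between agents. Oasl1 supplied 56.8% ± 6.93 of it in untreated enteroids, 39.8% ± 1.52 with butyrate, 76.4% ± 1.38 with IL-13 and 61.9% ± 1.66 with both. CPM is not scaled by exon length, so these are shares of counted reads and not of transcript numbers. The exons of Oasl1 cover 2608 bases, those of Oasl2 6374 and those of Oas3 7069. The 3 libraries of the IL-13 group spanned 74.9% to 77.4%, above every library of the other groups, and those with butyrate spanned 38.2% to 41.2%, below every other. The share of Oas3 was 9.74% untreated, 17.8% with butyrate and 4.85% with IL-13. Shares of 1 sum offset each other: the mean level of Oas3 was 9.31 CPM untreated and 9.99 with IL-13. The ratio of Oasl1 to Oasl2 in CPM was 2.11 ± 0.56 untreated, 1.11 ± 0.07 with butyrate, 5.02 ± 0.40 with IL-13 and 2.70 ± 0.14 with both.

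**Figure D2:**
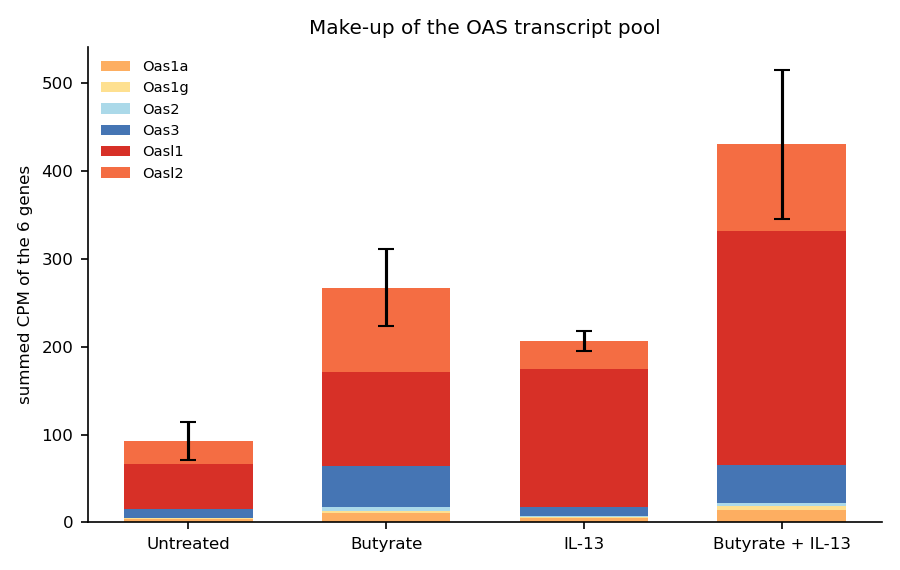
Mean CPM of the 6 OAS genes, not scaled by exon length, stacked by treatment group, on an axis that starts at 0. The stack is 92.3 CPM untreated and 430 CPM with both agents, and the Oasl1 segment takes 39.8% of it with butyrate and 76.4% with IL-13.

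Fitted changes put the same pattern on 1 scale, as log2 fold changes with standard errors from edgeR's quasi-likelihood fit over all 13750 genes tested, which included all 6 OAS genes. For butyrate over untreated, Oas3 differed by 2.34 ± 0.25, a 5.06-fold difference in fitted level, Oas1g by 2.00 ± 0.28, Oas2 by 1.89 ± 0.39 and Oasl2 by 1.88 ± 0.19. The smallest were Oas1a at 1.47 ± 0.23 and Oasl1 at 1.05 ± 0.14. The median of the 6 was 1.88, beside -0.01 over all genes tested.

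Butyrate added to IL-13 gave 2.15 ± 0.29 for Oas1g, 2.11 ± 0.26 for Oas3, 1.77 ± 0.42 for Oas2, 1.65 ± 0.19 for Oasl2, 1.51 ± 0.23 for Oas1a and 0.75 ± 0.14 for Oasl1. Oasl1 was again the smallest. The median was 1.71, beside -0.01 over all genes. The groups did not overlap for any of the 6 in either contrast, where 13% and 17.8% of all genes were higher without overlap. The genes were chosen with all 4 groups known, so nothing is read from such counts here or in the IL-13 contrasts.

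For IL-13 over untreated, Oasl1 differed by 1.61 ± 0.14, a 3.06-fold difference, and the other 5 by 0.10 ± 0.28 (Oas3) to 0.41 ± 0.25 (Oas1a). Of the 6, Oasl1 was the one whose groups did not overlap, beside 29.4% of all genes higher without overlap. The small differences moved with single libraries: that of Oas3 was 0.53 without untreated replicate 2 and -0.19 without untreated replicate 1, and that of Oas1a was 0.69 and 0.19. Oasl1 stayed between 1.56 and 1.72 whichever library was left out. In the authors' deposited table for the same contrast, Oasl1 had a log2 fold change of 1.62, Oasl2 of 0.28 and Oas3 of 0.11. For IL-13 added to butyrate, Oasl1 differed by 1.32 ± 0.14 and the other 5 by -0.13 ± 0.23 (Oas3) to 0.45 ± 0.21 (Oas1a). The groups did not overlap for Oas1a, Oas1g and Oasl1, beside 23.7% of all genes. Left without butyrate replicate 2 and replicate 3 of the combined treatment, the Lars2-high libraries, the Oasl1 difference was 1.03.

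**Figure D3:**
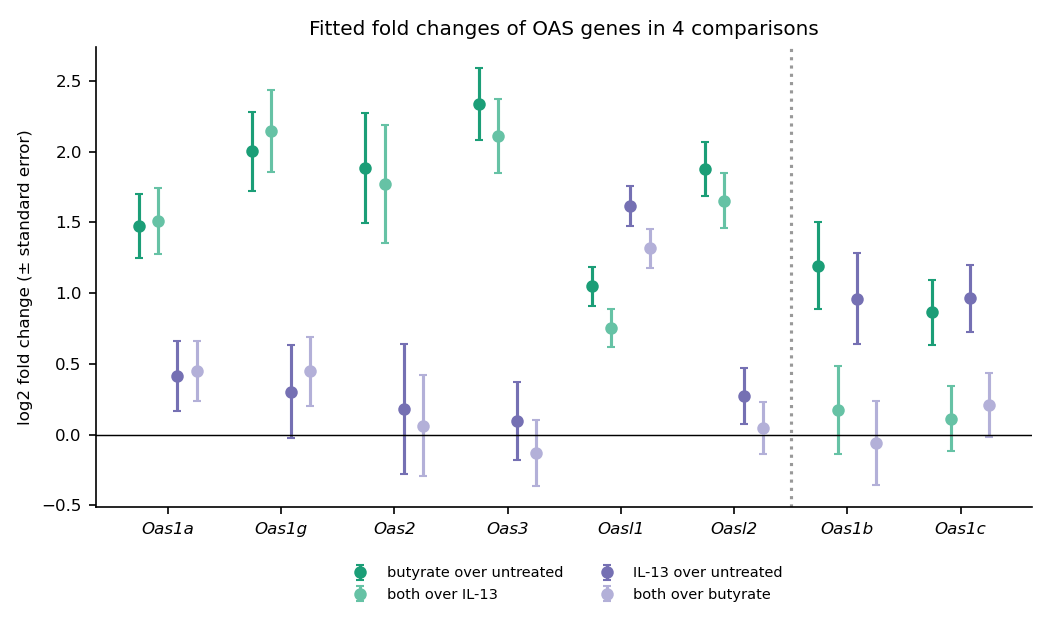
Log2 fold changes with standard errors for the 6 OAS genes and, right of the dotted line, Oas1b and Oas1c, in 4 contrasts. In the IL-13 contrasts Oasl1 is the highest of the 6, at 1.61 over untreated and 1.32 over butyrate.

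The interaction, the butyrate effect with IL-13 minus the effect without it, was between -0.29 ± 0.19 for Oasl1 and 0.14 ± 0.42 for Oas1g. The standard error was larger than the difference for 5 of the 6, all but Oasl1.

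The OAS genes also deviated together within groups. Untreated replicate 2 was the highest untreated library for all 6 genes, from 1.22-fold over the next highest for Oasl1 to 2.59-fold for Oas2, and lay 0.51 log2 units above its group mean on average. Without that library the butyrate difference was 2.63 for Oas2 and 2.20 for Oasl2, and the IL-13 difference was 0.93 for Oas2 and 0.59 for Oasl2. Replicate 1 of the combined treatment was below its group mean for all 6 genes, by 0.36 log2 units on average, and butyrate replicate 3 was above its group mean for all 6. Over the 12 libraries Pearson's r of log2 CPM between pairs of OAS genes ran from 0.53 for Oas3 with Oasl1 to 0.99 for Oas3 with Oasl2, with a median of 0.94 over 15 pairs. After each group's mean was removed, r still ran from 0.34 for Oas1g with Oas2 to 0.95 for Oas3 with Oasl2, with a median of 0.67. These are descriptions over libraries that also share their depth and scaling.

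**Figure D4:**
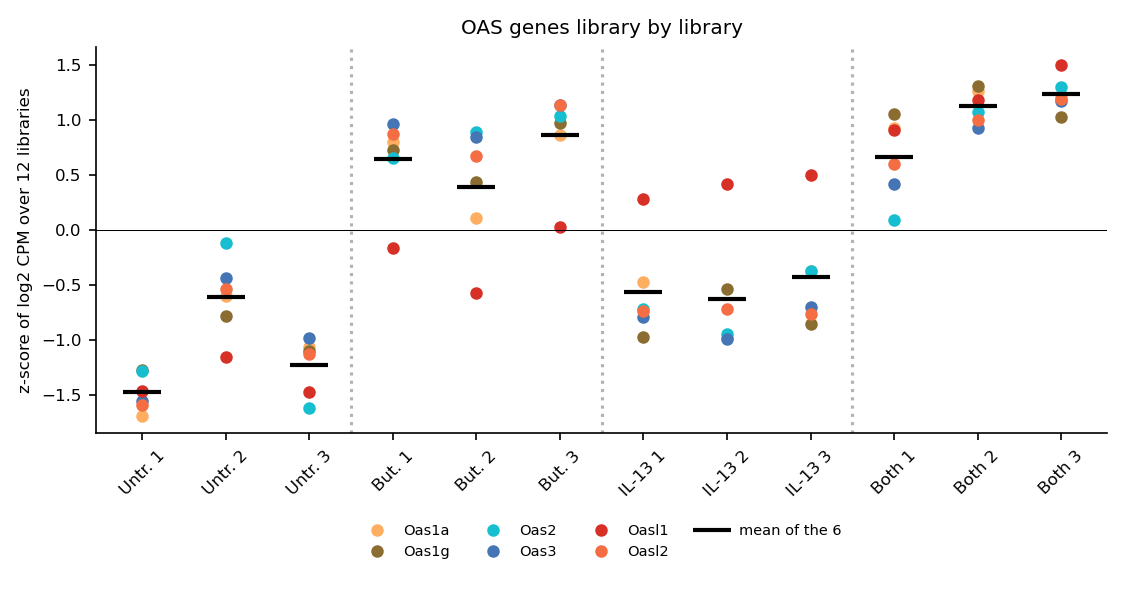
Z-score of log2 CPM over the 12 libraries, a point for each of the 6 OAS genes in every library and a bar for their mean. Untreated replicate 2 stands above the other untreated libraries in all 6 genes, and Oasl1 sits apart from the other 5 in the IL-13 libraries.

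Of the other members of the family, 4 had a row in the table and 2 could be tested. Oas1b, known for flavivirus resistance in some mouse strains, was at 1.14, 1.74 and 2.16 CPM untreated, at 3.21, 3.59 and 4.70 with butyrate, at 2.81, 1.99 and 4.90 with IL-13, and at 4.03, 3.19 and 3.73 with both. Oas1c was at 2.23, 2.67 and 3.77 CPM untreated, at 4.54, 5.2 and 5.95 with butyrate, at 6.63, 6.04 and 4.08 with IL-13, and at 6.01, 5.18 and 6.88 with both. In each, all 3 treated groups had means above the untreated one and overlapped each other. With butyrate, Oas1b rose by 1.19 ± 0.31 (adjusted p = 0.021, edgeR) and Oas1c by 0.86 ± 0.23 (adjusted p = 0.0261, edgeR). Both calls were lost without untreated replicate 1 (edgeR adjusted p = 0.104 for Oas1b and 0.122 for Oas1c), without untreated replicate 2 (0.0716 and 0.114) and without butyrate replicate 3 (0.0554 and 0.0608).

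With IL-13, Oas1c rose by 0.96 ± 0.24 (adjusted p = 0.00296, edgeR). Oas1b rose by 0.96 ± 0.32 (adjusted p = 0.0212, edgeR), a call lost when untreated replicate 1 (0.0983) or IL-13 replicate 3 (0.221) was left out and under plain library totals (0.0508). Butyrate added to IL-13 gave 0.17 ± 0.31 for Oas1b (adjusted p = 0.745) and 0.11 ± 0.23 for Oas1c (adjusted p = 0.781, both edgeR), with 95% intervals of -0.48 to 0.83 and -0.37 to 0.60. The interaction was -1.02 ± 0.44 for Oas1b (edgeR adjusted p = 0.395) and -0.75 ± 0.33 for Oas1c (edgeR adjusted p = 0.402), both lower at an unadjusted p under 0.05 (0.0313 and 0.0333) and neither after adjustment over all genes. Oas1f had 6, 11 and 15 counts in the untreated libraries, 14, 0 and 0 with butyrate, 5 in each IL-13 library and 0 in all 3 with both, where 0 counts allow up to 0.0772 CPM over the group. Oas1h had 0 to 6 counts in every library.

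The step below the synthetases was covered by 4 genes that act on 2-5A or downstream of it. With butyrate edgeR called 0 of them, beside 7.9% of all genes called in either direction. Of the 4, 0 were at an unadjusted p under 0.05 and DESeq2 called 0. Pde12, a phosphodiesterase that degrades 2-5A, was at 107 ± 3.8, 102 ± 2.90, 129 ± 0.51 and 113 ± 0.57 CPM in untreated, butyrate, IL-13 and combined libraries (SD, n = 3 each). It rose by 0.27 with IL-13 (adjusted p = 0.00505, edgeR), or by 0.10 with plain library totals (adjusted p = 0.259). Akap7, which also degrades 2-5A, fell by 0.28 with IL-13 (adjusted p = 0.0142, edgeR), a call lost without untreated replicate 1 (0.0656) or IL-13 replicate 2 (0.0654). Those were the 1 higher and 1 lower call of the 4 with IL-13, beside 21.8% higher and 21.7% lower of all genes.

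Interferon mRNAs were at or near 0. Of 10 interferon genes on the list 3 had a row, and none passed the filter on low counts. Ifnk had 3, 1 and 3 counts in the untreated libraries and 1 in IL-13 replicate 1, Ifne had 3 counts in untreated replicate 2, and Ifng had 1 count in untreated replicate 1. None of the 3 had a count in any of the 6 butyrate-treated libraries. The other 7, among them Ifnb1 and the type III interferon genes Ifnl2 and Ifnl3, were not analysed here.

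The receptors and signal carriers upstream of the OAS genes rose in part. With butyrate, edgeR called 5 of 12 higher and 0 lower, beside 5.14% and 2.76% of all genes. Stat2 and Irf9, whose products act at the ISRE, were among them. So was Jak2, whose call was lost under 7 of 20 alternatives. Stat2 was at 41.1 ± 6.16 CPM untreated, 71 ± 10.4 with butyrate, 40.2 ± 5.47 with IL-13 and 82.8 ± 15.9 with both. With butyrate Stat2 rose by 0.79 ± 0.15 (adjusted p = 0.00189, edgeR) and Irf9 by 0.82 ± 0.12 (adjusted p = 0.000204, edgeR). The butyrate and untreated libraries of each did not overlap. Ifngr1, the ligand-binding chain of the interferon gamma receptor, rose by 0.52 ± 0.08 (adjusted p = 0.000208, edgeR). When butyrate was added to IL-13, 11 of the 12 were called higher and 0 lower, beside 21.2% of all genes called; 1 was lower at an unadjusted p under 0.05 and DESeq2 called 0 lower. With plain library totals the count was 5 higher and 1 lower, Tyk2 (adjusted p = 0.0163, edgeR). It was 6, 7 and 5 higher without IL-13 replicate 1, 2 or 3 in turn, 7 without replicate 3 of the combined treatment, and 7 without both Lars2-high libraries. The calls of Ifngr2 and Jak2 were lost under 13 and 11 of 20 alternatives. Stat2 then rose by 1.04 ± 0.15 (adjusted p = 9.38e-05) and the type I receptor chain Ifnar1 by 0.38 ± 0.08 (adjusted p = 0.00279, both edgeR).

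Among 7 interferon regulatory factors with a row, butyrate raised Irf7 and lowered Irf8. Irf7, the factor that amplifies interferon production and whose translation Oasl1 restrains, was at 38.6 ± 7.65 CPM untreated, 103 ± 20.7 with butyrate, 68.4 ± 4.32 with IL-13 and 129 ± 25.0 with both. It rose by 1.42 ± 0.16 with butyrate (adjusted p = 1.98e-05), by 0.83 ± 0.16 with IL-13 (adjusted p = 0.000451) and by 0.92 ± 0.16 with butyrate added to IL-13 (adjusted p = 0.000527, all edgeR). Oasl1, in the levels given above, was also higher with each agent alone. Irf8, best known in myeloid cells, fell by 0.34 (adjusted p = 0.0131, edgeR), a call lost without untreated replicate 2 (0.0614) or butyrate replicate 1 (0.0756). Irf2, which binds the same element as the ISRE complex, rose by 0.49 ± 0.08 with IL-13 (edgeR adjusted p = 4.72e-05) and by 0.46 ± 0.08 with butyrate added to it (edgeR adjusted p = 0.000326).

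Other sensors of viral nucleic acid followed the OAS genes in part, with 5 of 11 higher and 0 lower with butyrate (2 lower at an unadjusted p under 0.05, 0 by DESeq2), beside 5.14% and 2.76% of all genes. The helicases Dhx58, Ddx58 (RIG-I) and Ifih1 (MDA5), which like OAS proteins bind double-stranded RNA, rose by 0.90 (adjusted p = 0.000449), 0.58 (adjusted p = 0.00181) and 0.50 (adjusted p = 0.00105, all edgeR). Eif2ak2, the kinase PKR, rose by 0.40 (adjusted p = 0.00677, edgeR). The DNA-sensing adaptor Tmem173 (STING) was not called with butyrate but fell by 2.04 ± 0.28 with IL-13 (adjusted p = 1.08e-05, edgeR). Of the 6 brakes on interferon signalling, 2 rose with butyrate, beside the same 5.14% of all genes. Usp18, which blocks signalling at the type I receptor, went from 1.51 ± 0.92 to 4.84 ± 0.68 CPM, a rise of 1.66 ± 0.37 (adjusted p = 0.00736, edgeR). The other was Adar, which edits double-stranded RNA, at 0.40 ± 0.10 (adjusted p = 0.0139, edgeR), a call lost without untreated replicate 1 (0.0835) or untreated replicate 3 (0.0663). Socs1, an inhibitor of JAK kinases, had a butyrate difference of -0.46 ± 0.23 (adjusted p = 0.275) and rose by 3.10 ± 0.19 with IL-13 (adjusted p = 5.42e-10, both edgeR).

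Of the other effectors that interferon induces, butyrate raised 13 of 18 and lowered 0 (1 lower at an unadjusted p under 0.05, 0 by DESeq2), with a median log2 fold change of 1.33, beside 5.14% higher, 2.76% lower and a median of -0.01 over all genes. Calls of Rsad2, Bst2, Xaf1 and Cmpk2 were lost under 8, 6, 3 and 2 of 20 alternatives, and the count higher ran from 9, without untreated replicate 3, to 14. Ifi27l2a rose by 4.37 ± 0.33 (adjusted p = 2.3e-07), from 0.348 ± 0.12 to 7.31 ± 2.33 CPM, and Trim30a by 2.5 (adjusted p = 1.98e-05, both edgeR). Isg15, a ubiquitin-like protein, rose by 2.28 ± 0.32 (adjusted p = 0.000153) and Ifit3 by 2.21 (adjusted p = 0.000122, both edgeR). Mx1 did not pass, at -0.01 ± 0.37 (edgeR adjusted p = 0.99) and 14 to 33 counts per untreated library. With butyrate added to IL-13, 12 of 18 were higher and 0 lower (0 lower at an unadjusted p under 0.05 and by DESeq2), with a median of 1.41, beside 9.85% and 11.3% of all genes. IL-13 alone raised Ifi27l2a by 1.75 (adjusted p = 0.00275, edgeR) and Rtp4 by 0.65 (adjusted p = 0.0199, edgeR). The Rtp4 call was lost without untreated replicate 1 (0.108), untreated replicate 3 (0.0824) or IL-13 replicate 1 (0.102) and with plain library totals (0.0712). IL-13 lowered Ifitm3, which blocks viral entry, by 1.76 ± 0.19 on the log2 scale (adjusted p = 5.96e-07, edgeR).

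Over the 7 lists outside the OAS family, 58 genes were tested. The lists were chosen with earlier results of these data known, so their counts are a description. Butyrate raised 26 and lowered 1, where 5.14% and 2.76% of all genes tested were called in those directions by edgeR. Butyrate added to IL-13 raised 31 and lowered 0 (2 lower at an unadjusted p under 0.05, 1 by DESeq2), beside 9.85% and 11.3% of all genes. IL-13 raised 17 and lowered 7, beside 21.8% and 21.7%, and IL-13 added to butyrate raised 14 and lowered 6, beside 22.9% and 24.9%. For the interaction edgeR called 0, with 6 at an unadjusted p under 0.05 and 0 by DESeq2, beside 0.865% of all genes called by edgeR, but 2, Ifi44 and Trim30a, without untreated replicate 2. The medians of these 58 genes were 0.32 for butyrate and 0.38 for butyrate added to IL-13, beside OAS medians of 1.88 and 1.71 and -0.01 over all genes in each.

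**Figure D5:**
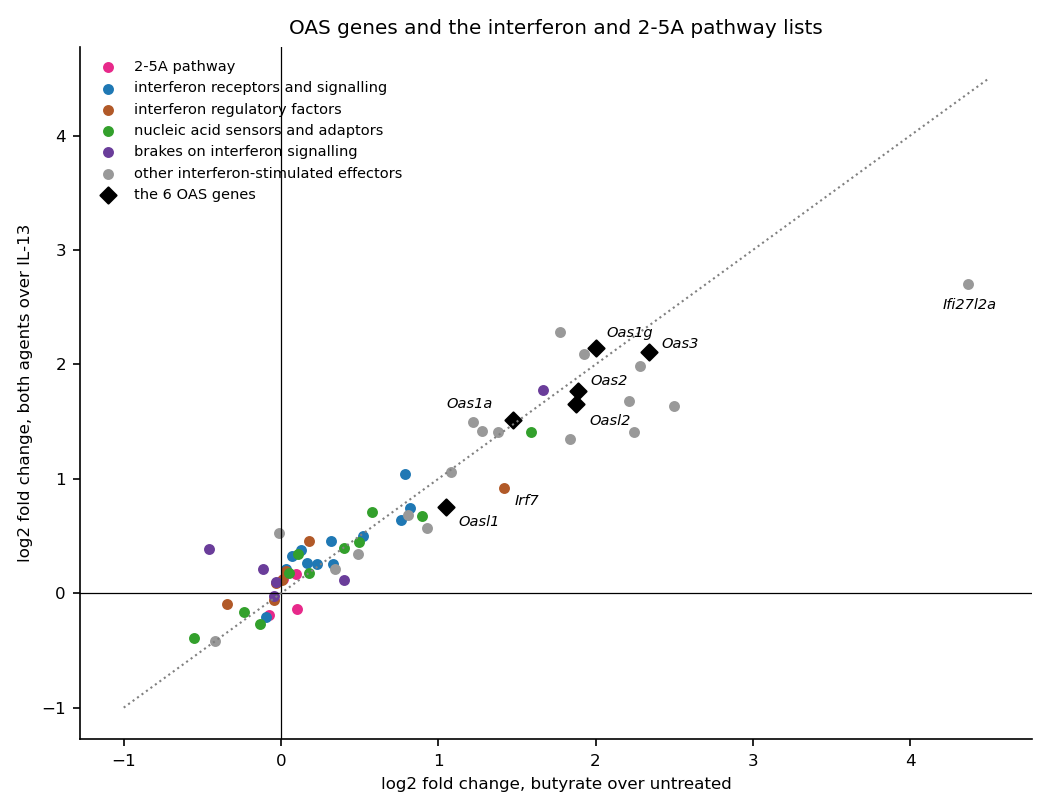
Log2 fold change of butyrate over untreated (horizontal) against both agents over IL-13 (vertical), a point per gene, for the 6 OAS genes and the tested genes of the pathway lists. The OAS genes lie between 1.05 and 2.34 on the first axis and between 0.75 and 2.15 on the second, and Ifi27l2a lies farthest along the first, at 4.37.

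Likeness was ranked over 10280 tested genes that averaged 50 counts or more. Of the 8 outside the family whose pattern over the 12 libraries was most like the mean of the OAS z-scores, 7 are reported: Rtp4, Ifi27l2a, Irf9, Dhx58, Isg15, Irf7 and Ddx58, with Pearson's r from 0.98 for Rtp4 to 0.96 for Ddx58. All 7 were on the pathway lists, which were chosen with earlier results of these data known, so nothing is read from that. After group means were removed, r was 0.87 for Rtp4, the highest of the 7, and 0.73 for Irf9, the lowest. Rtp4, a receptor chaperone induced by interferon, was at 12.5 ± 5.10 CPM untreated, 44.9 ± 7.62 with butyrate, 19.8 ± 3.00 with IL-13 and 50.4 ± 7.35 with both.

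Genes flanking the OAS blocks differed from one another. Ptpn11, on the far side of the synthetase block, differed by 0.00 on the log2 scale with butyrate (edgeR adjusted p = 0.994). Rasal1, on the near side, fell by 1.28 with IL-13 (adjusted p = 0.000389, edgeR) and rose by 2.05 ± 0.24 with butyrate added to IL-13 (adjusted p = 1.59e-05, edgeR). Its rise with butyrate alone, 0.76 ± 0.20 (adjusted p = 0.0257, edgeR), did not pass when any 1 of 5 of the 6 libraries in that contrast was left out, all but butyrate replicate 2 (adjusted p from 0.0627 to 0.125). The gene Gm13822 lies between Oasl2 and Oasl1 on the opposite strand and overlaps the start of Oasl1. It had 2 to 14 counts per library, and the strand setting of the counting is unknown here, so reads of the 2 genes in the overlap cannot be told apart.

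Markers of cell state moved beside the OAS genes. Summed absorptive enterocyte markers spanned 4229 to 4661 CPM in the untreated group, 5825 to 6607 under butyrate, 5386 to 5611 under IL-13 and 5998 to 9054 under both, and 5 of 10 were called higher and 1 lower with butyrate by edgeR, beside 5.14% and 2.76% of all genes. Stem and cycling markers were at 555 to 567, 464 to 575, 184 to 253 and 129 to 146 CPM in the same order of groups. Secretory markers were at 2082 to 2724, 2611 to 3236, 1633 to 1708 and 530 to 856 CPM, with 5 of 7 called lower and 1 higher with butyrate, beside 2.76% and 5.14% of all genes. These sums hide opposite moves. With butyrate mean Lyz1 went from 843 to 2101 CPM and Chgb from 977 to 396. Lgr5 went from 9.17 to 26.4 CPM and Olfm4 from 27.1 to 6.89. With IL-13, 2 of the 7 secretory markers were called higher and 2 lower, beside 21.8% and 21.7% of all genes. Lyz1 was then at 235 CPM, and Dclk1 at 27.0 against 7.41 untreated. The part of these markers in the OAS levels was not tested. Of 4 tested immune markers, 1, Lyz2, was called higher with butyrate (log2 fold change 2.01, adjusted p = 0.049, edgeR), at 15 to 33 counts per butyrate library. That call was lost under DESeq2 (0.0587), under plain library totals (0.0566) and, among others, without untreated replicate 2 (0.157) or butyrate replicate 1 (0.148).

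Some markers of other cell types also moved with IL-13, beside the rise in Oasl1 level. Of the 4 tested immune markers 1, Cd68, was called higher and 0 lower, beside 21.8% and 21.7% of all genes. Cd68 went from 2.49 ± 0.13 to 5.19 ± 1.45 CPM (log2 fold change 1.06 ± 0.25, adjusted p = 0.00201, edgeR), and it was 5.41 ± 1.53 CPM with both agents. Ptprc, too low to test, had 1 to 3 counts per untreated library and 4 to 10 per IL-13 library. Of 5 endothelial markers with a row, 2 passed the low-count filter, and both were called higher, where 21.8% of all genes were. The 5 together had 23 to 33 counts per untreated library and 36 to 51 per IL-13 library. At such counts a gene can pass the filter through the group where it is high, so nothing is read from that count. Vwf rose by 2.05 ± 0.53 (adjusted p = 0.00461, edgeR) and Pecam1 by 1.23 ± 0.46 (adjusted p = 0.0376, edgeR), and the Pecam1 call was lost under 9 of the 19 alternatives that tested it. Endothelial sums spanned 1.26 to 1.34 CPM in untreated libraries, 1.06 to 1.30 under butyrate, 2.60 to 3.50 under IL-13 and 1.34 to 2.79 under both. Mesenchymal sums were lower under IL-13, at 2.67 to 3.68 CPM against 4.12 to 6.10 untreated, and were 4.30 to 5.63 under butyrate and 2.27 to 4.06 under both. Their part in the Oasl1 level was not tested.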

How the data were processed

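The deposited table gave whole-number counts of reads per gene for 12 libraries, not normalised by the authors, with the authors' deposited log2 fold changes, p-values and FDR for IL-13 over untreated. Per the submitters' processing notes the build was mm10, while the aligner, the counter and its strand setting are not given in the sources consulted. Of 18092 rows, those sharing a gene (23 genes) were added up, leaving 18068 genes; 0 other sample columns were present. All replicate pairs exceeded sampling noise (chi-square over its degrees of freedom at least 3.90).

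The test was that of edgeR 4.0.16 (R 4.3.3; TMM, filterByExpr, robust quasi-likelihood, all 12 libraries, no replicate block). The filter kept 13750 genes, with 8 residual degrees of freedom, and calls were made at a Benjamini-Hochberg adjusted p under 0.05 over all of them. Intervals are at 95%, and a count of 0 was set to allow 3 counts over the group. The test was tried on simulated data. Alternatives were RLE scaling, plain library totals, DESeq2 1.42.0, dropping the low-count filter, requiring a mean of 50 counts, only the groups compared, a replicate block and each library left out. Leaving out both Lars2-high libraries was added after seeing the data.

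The OAS genes, pathway lists and markers were chosen with earlier results of these data known. Named genes were the OAS genes, genes of those lists and the 8 most alike in pattern (log2 CPM, prior count 2); the 4 of each list with the smallest adjusted p came first, and text order and omissions favoured genes whose calls held; some genes of these lists are not reported here, though counts over lists include them. Ptpn11, Rasal1, Gm13822, Lars2, Lyz2, Cd68, Vwf and Pecam1 were named by position or after their values were seen. Exon lengths and shared words came from GENCODE M21, and promoter windows from RefSeq (GRCm38.p6).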

Additional observations from a re-analysis of the deposited data

How the results depend on the processing

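The OAS median log2 fold change moved by less than the spread between replicates, 0.37, under every alternative run: 1.66 to 2.20 for butyrate over untreated (1.88), 0.11 to 0.64 for IL-13 over untreated (0.29), 1.51 to 1.95 for both over IL-13 (1.71), 0.03 to 0.45 for both over butyrate (0.26) and -0.47 to 0.09 for the interaction (-0.17). That spread is the SD within groups of the median OAS log2 CPM. It is larger in size than the medians for IL-13 over untreated, both over butyrate and the interaction. For those contrasts the check cannot tell a stable value from 0, and the interaction changed sign. Of 584 single OAS values under alternatives, 9 moved by more than the spread between replicates. The count of genes called ranged, with 1 library left out, from 557 to 1401 for butyrate over untreated (1086), from 1929 to 3444 for both over IL-13 (2912) and from 55 to 216 for the interaction (119), which DESeq2 put at 276. For butyrate, leaving out untreated replicate 2 gave 610, leaving out untreated replicate 3 gave 557 and leaving out butyrate replicate 1 gave 628; for both over IL-13 it was 1929 without replicate 3 of the combined treatment. Pathway genes called for the interaction ranged from 0 to 2. Plain library totals moved the median of all genes by -0.23 for both over butyrate, by -0.17 for IL-13 over untreated and by -0.13 for both over IL-13. The fit of only the groups compared was not run for the interaction, which uses all 4. Of the other named genes' values under alternatives, 194 lost and 89 gained a call.

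Replicate numbers did not pair the libraries: 4 of 18 same-numbered pairs had a correlation of deviations over 0.1 (-0.32 to 0.23), and 3 libraries correlated best with their own number. With the number as a replicate block, edgeR called 978, 5866, 2757, 6447 and 114 genes in the contrasts butyrate over untreated, IL-13 over untreated, both over IL-13, both over butyrate and interaction, and 27, 22, 29, 19 and 0 pathway genes; the OAS medians were 1.92, 0.30, 1.68, 0.23 and -0.24. With 13867982 to 24294456 counts per library, Oas1g and Oas2 rested on few counts, and their standard errors of 0.25 to 0.46 for single contrasts limit what could be detected.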
